A study of Mus musculus with 24 samples.

Results

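The 3 samples of untransfected Neuro2A cells among the 24 RNA-seq samples of the study were examined for which genes and gene families were abundant, low or listed at 0 before any CRISPR effector was delivered. They were chosen by their treatment label alone, and form 1 of 8 groups of 3. Neuro2A is a mouse neuroblastoma cell line, labelled wild-type in genotype and as neuroblasts isolated from brain tissue, and all 24 samples share it. The untransfected cells received no plasmid. In 6 other groups, 18 samples in all, cells were transfected with a plasmid that encoded RfxCas13d, HiFi-RfxCas13d or DiCas7-11 together with either an mATXN2-targeting crRNA or a non-targeted (NTG) crRNA, and were collected after 48 hr. The last group of 3 received an antisense oligonucleotide (ASO) against ataxin-2. Neuro2A is 1 line, so that the 3 samples measure the spread between cultures of that line and not between tumors or animals, and whether each came from a separate culture is not stated in the labels.

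Neuroblastoma arises from the sympathoadrenal branch of the neural crest, the embryonic population that also forms sympathetic neurons and the chromaffin cells of the adrenal medulla. A small circuit of transcription factors, among them Phox2a, Hand2, Gata2, Gata3 and Isl1, specifies that fate and switches on the enzymes and transporters of catecholamine synthesis. Neuroblastoma cells can also take a mesenchymal state marked by factors such as Prrx1, Yap1 and Snai2. Cells recognize foreign RNA and DNA by dedicated sensors, such as the helicases RIG-I and MDA5, whose signaling induces interferon and, through it, a wide set of interferon-stimulated genes.

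The counts per gene summed to 15645295, 16813658 and 12665725 in the 3 untransfected libraries, against 12665725 to 22504999 over all 24. Levels are given as CPM, the count of a gene scaled to a common total of 1000000 counts per library. These are levels of a whole culture, in which fewer cells that express a gene and less RNA per cell cannot be told apart. At these depths 3 counts, the limit that a count of 0 allows, correspond to 0.192, 0.178 and 0.237 CPM, for counting error only. Of the 39253 genes in the table, 11806 (30.1%) were at 1 CPM or more in all 3 libraries and 2434 (6.20%) at 100 CPM or more. Another 7504 had counts but were under 1 CPM in at least 1 library, and 19943 (50.8%) were listed at 0 in all 3. The genes at 100 CPM or more held 69.6% ± 0.0985 (SD, n = 3) of the counts. Among genes that RefSeq annotates as protein coding, 51.8% were at 1 CPM or more, against 3.48% of long non-coding RNAs. Between pairs of the 3 libraries the chi-square per gene came to 1.75 to 2.41 times what counting alone gives, so no 2 of them agreed within sampling noise.

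An exact 0 in this table does not show that a gene is silent, since reads that fit several gene copies were shared out among them when counts were estimated. Of 86 genes for cytosolic ribosomal proteins, which every cell needs, 77 were at 100 CPM or more, but Rps6, a subunit of the small ribosome, was at only 16.5 ± 1.48 CPM (SD, n = 3). The 3 listed at 0 were Rpl10l, Rpl32l and Rps4l, which are copies of other family members. Genes are therefore said below to be listed at 0, and members of families with near-identical copies are uncertain.

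The most abundant transcripts were those of protein synthesis, folding and the cytoskeleton. Eef1a1, the elongation factor that brings aminoacyl-tRNA to the ribosome, led with 10355, 10464 and 10457 CPM in replicates 1 to 3, and its 3 values lay within a CV of 0.583%. The chaperone Hsp90ab1 reached 6123 ± 139 CPM (SD, n = 3 here and below), the cytoplasmic actins Actg1 and Actb 5168 ± 96.6 CPM and 3926 ± 34.7 CPM, the chaperone Hspa8 3398 ± 38.9 CPM and the translocation factor Eef2 3215 ± 14.2 CPM. A pair of predicted loci stood among them, LOC118568312, annotated as similar to the transport protein sec31, at 8384 ± 601 CPM and the predicted non-coding gene Gm26782 at 4889.8 ± 142 CPM. LOC118568312 held 8995, 7792 and 8365 CPM, a wider spread than that of its neighbors, and no transcript length was matched to either. The rest of the 20 highest by CPM were Scd2 at 2731 CPM, Hnrnpa1 at 2678, Map1b at 2644, Npm1 at 2616, Ptma at 2532, Dpysl3 at 2489, Atp5b at 2465, Cntn5 at 2430.2, Ppia at 2375, Hsp90aa1 at 2343, Ncl at 2290.1 and Gapdh at 2202. Map1b, a microtubule-associated protein, Dpysl3, a collapsin response mediator that acts in axon growth, and Cntn5, an adhesion molecule of the contactin family, are best known from neurons. The 10 highest genes held 5.09% ± 0.0434 of the counts and the 100 highest 17.3% ± 0.0697.

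Long transcripts collect more counts at the same number of molecules, so genes were also compared with each other as CPM per kb of transcript. Orders given in CPM reflect transcript length as well. On that scale Eef1a1 again led, with 5811 ± 33.9 CPM per kb, followed by Actg1 at 2648 ± 49.5, Hsp90ab1 at 2429.9 ± 55.1, Ptma at 2082 ± 73.0 and Actb at 2045 ± 18.1. Ribosomal protein genes filled much of the rest of the 20 highest, with Rpl23a at 1762 ± 10.8, Rpl8 at 1696 ± 26.9, Rps27a at 1687 ± 37.4 and Rpl7a at 1665 ± 7.77 CPM per kb, followed by Rpl19, Ppia, Npm1, Rps4x, Rpl41, Gapdh, Rpl10, Rps2, Rps26, Hspa8 and Hnrnpa1. The order on this scale depends on the length taken, here that of the longest protein-coding transcript of a gene: with the median length over its transcripts 10 of these 20 genes stayed among the 20 highest. The 86 ribosomal protein genes together made up 55526 ± 192 CPM.

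Most factors of the sympathoadrenal circuit were expressed, while Gata3 and Hand1 were low. Of 22 transcription factors on this list 15 were at 1 CPM or more, 6 of them at 100 CPM or more, and 4 were listed at 0. Hand2 (Entrez 15111), a basic helix-loop-helix factor of sympathetic precursors, was highest with 359, 368 and 364 CPM, a mean of 364 ± 4.51 CPM, at percentile 96.5 of the genes at 1 CPM or more. Gata2 (Entrez 14461), a zinc finger factor of the same lineage, had 241, 213 and 207 CPM, with replicate 1 above the other 2. Phox2a (Entrez 11859), a homeodomain factor of autonomic neurons, had 75.2, 81.1 and 80.6 CPM. The 3 values of each of these factors lay close together and far above the limit that 0 counts allow.

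The SoxC factors Sox4 and Sox11, which mark immature neurons, stood at 331 ± 14.2 CPM and 114 ± 2.31 CPM, and Klf7, a zinc finger factor of sensory and sympathetic neurons, at 129.7 ± 5.81 CPM. The LIM-only factor Lmo1 had 58.1 ± 0.476 CPM, the zinc finger factor Insm1 43.7 ± 2.0 CPM, the T-box factor Tbx2 28.8 ± 1.60 CPM and the LIM homeodomain factor Isl1 28.7 ± 2.77 CPM. Mycn, the oncogene amplified in aggressive human neuroblastoma, was at 21.01, 20.6 and 20.5 CPM, while its relative Myc had 175, 183 and 189.5. Hmx1, Tlx2 and Tfap2a were among the factors listed at 0 in all 3 libraries. Gata3 had 2.94 ± 0.368 CPM and Hand1 0.322 ± 0.0739 CPM. Per kb of transcript Gata3 was at 0.914 ± 0.115 CPM per kb against 61.8 ± 5.07 for its paralog Gata2, and Hand1 at 0.169 ± 0.0388 against 155 ± 1.92 for Hand2.

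Per kb of transcript, Hand2 was highest at 155 ± 1.92 CPM per kb, above Sox4 (69.0 ± 2.96) and Gata2 (61.8 ± 5.07), whose values over the 3 libraries overlapped with each other. Below them were Phox2a (49.1 ± 2.01) and then Lmo1 (45.3 ± 0.371). After a step down followed Klf7, Insm1, Sox11, Isl1, Tbx2 and Mycn, from 16.9 to 7.74 CPM per kb, with Insm1 and Sox11 not separated and Tbx2 and Mycn not separated. Summed over the list, the sympathoadrenal factors made up 1563 to 1601 CPM in the 3 libraries.

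Of 18 factors and Notch genes that mark mesenchymal neuroblastoma cells, 7 were at 1 CPM or more, none at 100 CPM or more, and 7 were listed at 0: Prrx1, Yap1, Snai2, Twist1, Twist2, Tbx18 and Tead4. Fosl2, an AP-1 subunit, was at 41.8 ± 4.54 CPM. Wwtr1, which encodes TAZ, a Hippo pathway coactivator and relative of YAP, had 33.0, 28.5 and 30.8 CPM, while Yap1 was listed at 0. Per kb these were the highest of the list, at 6.56 ± 0.478 for Wwtr1 and 6.39 ± 0.695 CPM per kb for Fosl2, and their values overlapped. Notch2 had 27.5 ± 2.58 CPM, and Notch1 and Notch3 1.80 ± 0.668 CPM and 1.75 ± 0.0755 CPM. The list summed to 111 to 129.9 CPM. The plot of both lists by library shows the sympathoadrenal factors in an unbroken range from Hand2 down to Gata3, and below them a gap to the factors at or near 0.

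**Figure D1:**
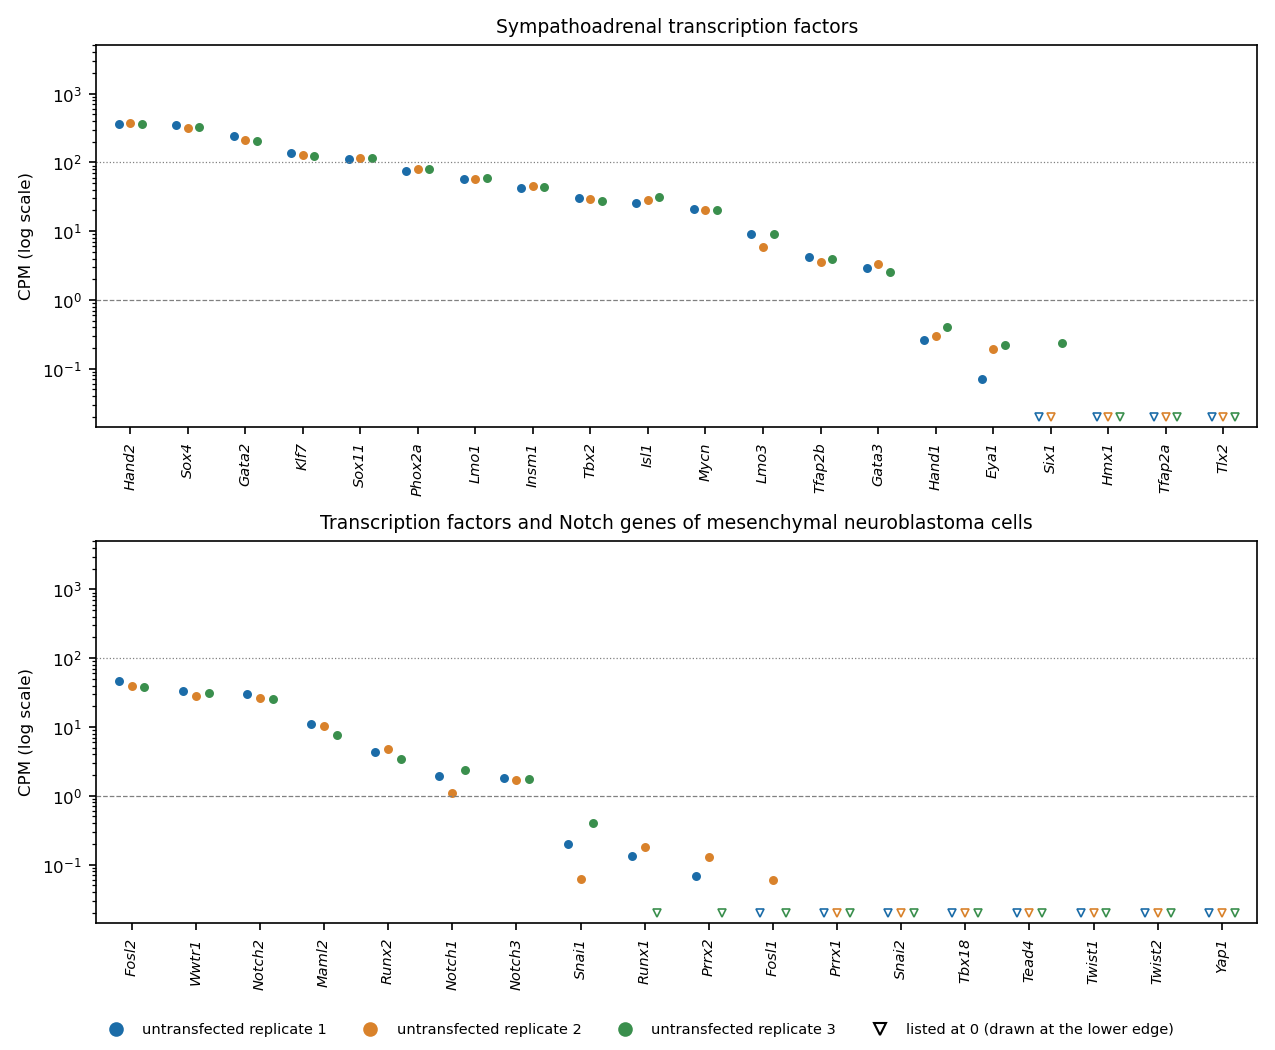
CPM (log axis) of the sympathoadrenal factors (top) and of the factors of mesenchymal neuroblastoma cells (bottom) in the 3 untransfected libraries, 1 point per library, with open triangles for a value of 0; dashed and dotted lines mark 1 and 100 CPM. The factors above 100 CPM, from Hand2 to Sox11, are all in the top panel, where the points of a gene nearly coincide.

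Proneural and Hox genes were largely listed at 0, and other developmental transcription factor families in part. Of 23 proneural basic helix-loop-helix factors, which start neuronal differentiation in precursors, 19 were listed at 0, among them Neurog1, Neurog2, Neurod1 and Neurod4, and Atoh8 alone reached 1 CPM, with 9.16, 7.36 and 7.66 CPM. Of 39 Hox genes, which mark position along the body axis, 32 were listed at 0. The 4 at 1 CPM or more all belong to the Hoxc cluster: Hoxc9 with 14.4, 13.4 and 11.3 CPM, Hoxc10 with 7.68, 8.48 and 7.35, Hoxc6 with 6.78, 5.75 and 5.67 and Hoxc4 with 2.76, 2.94 and 2.75. Hoxc8 and Hoxc5, which lie in the same cluster, had 0.584 and 0.458 CPM, and Hoxb2 a trace of 0.0220 CPM. Every member of the Hoxa and Hoxd clusters was listed at 0.

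Among 20 Sox genes 6 were at 1 CPM or more. Besides Sox4 and Sox11 these were Sox9 at 54.6 CPM, Sox12 at 50.5, Sox8 at 43.9 and Sox6 at 39.6. Per kb Sox8 followed Sox4, at 14.6 ± 0.740 CPM per kb, and was not separated from Sox11. The neural progenitor factors Sox1, Sox2 and Sox3 were listed at 0 and Sox10, a factor of neural crest and Schwann cells, had 0.0404 CPM. Gata4, better known from heart and endoderm, was also at 1 CPM or more, with 55.6, 54.1 and 53.2 CPM, and Gata1, Gata5 and Gata6 were listed at 0. Of 9 Pax genes 3 passed 1 CPM: the B-cell and midbrain factor Pax5 at 19.9 ± 2.80 CPM, the eye and forebrain factor Pax6 at 12.3 ± 1.94 CPM and the neural crest factor Pax3 at 3.17 ± 0.435 CPM. Of 12 LIM homeodomain genes 6 did, led by Isl1 and by Lhx1 at 12.8 ± 2.06 CPM, and of 11 Dlx and Zic genes 5, none above 6.19 CPM (Dlx1).

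The promoters of these genes differ in their content of CpG, the dinucleotide whose clusters mark most housekeeping and developmental promoters of vertebrates. RefSeq sequences of the 250 bases before a gene's start (GRCm38.p6, an older build than that of the counts) were matched for 26410 genes of the table. Protein-coding genes listed at 0 had a median of 2 CpG in these 250 bases (quartiles 1 and 5, 5667 genes), and those at 100 CPM or more a median of 19 (quartiles 13 and 26, 1927 genes). The 59 developmental factors of the 9 lists above that were listed at 0 had a median of 12, nearer to the 16 of the 36 such factors at 1 CPM or more than to the 1 of 930 olfactory receptor genes listed at 0. These are descriptions of the sequences, and no methylation was measured. The 3 stretches printed next show an expressed factor, a factor listed at 0 and an immune receptor listed at 0, each 250 bases from 5′ to 3′ on the strand of the gene up to its start, with every CpG in capitals. Hand2 (364 CPM) lies on the plus strand at chr8:57320733-57320982 and has 15 CpG there, the pluripotency and neural progenitor factor Sox2 (listed at 0) on the plus strand at chr3:34649745-34649994 and has 27, and Tlr8 (listed at 0), an endosomal receptor for single-stranded RNA, on the minus strand at chrX:167264330-167264579 and has 1.
Hand2: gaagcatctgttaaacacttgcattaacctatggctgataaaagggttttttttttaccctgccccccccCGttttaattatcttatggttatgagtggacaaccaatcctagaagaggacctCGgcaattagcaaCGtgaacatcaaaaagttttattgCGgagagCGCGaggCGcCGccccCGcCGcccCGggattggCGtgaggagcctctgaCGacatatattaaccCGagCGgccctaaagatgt
Sox2: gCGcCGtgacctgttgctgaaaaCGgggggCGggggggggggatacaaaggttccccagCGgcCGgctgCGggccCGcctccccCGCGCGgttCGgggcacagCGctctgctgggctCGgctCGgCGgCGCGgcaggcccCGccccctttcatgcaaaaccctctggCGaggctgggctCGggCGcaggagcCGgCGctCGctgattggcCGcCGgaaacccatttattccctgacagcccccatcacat
Tlr8: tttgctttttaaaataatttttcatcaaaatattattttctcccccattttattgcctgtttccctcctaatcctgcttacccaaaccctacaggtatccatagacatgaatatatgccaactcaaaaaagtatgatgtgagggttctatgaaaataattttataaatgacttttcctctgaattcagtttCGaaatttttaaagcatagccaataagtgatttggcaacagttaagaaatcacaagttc

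Pan-neuronal genes were expressed almost throughout, many of them at high levels. Of 36 such genes 32 were at 1 CPM or more and 18 at 100 CPM or more, and none was listed at 0 in all 3 libraries. The microtubule-associated Map1b had 2764, 2635 and 2532 CPM. Prph, the peripheral neuron intermediate filament peripherin, had 731, 735 and 711 CPM, Stmn1, a microtubule destabilizer of growing neurons, 681, 710.0 and 705, and the neuronal ubiquitin hydrolase Uchl1 485, 489 and 464. The neuronal tubulin Tubb3 stood at 410.0 ± 11.0 CPM and the RNA-binding protein Elavl4 at 409 ± 11.9 CPM. Per kb, Stmn1 was highest at 659 ± 14.7 CPM per kb, above Uchl1 (407 ± 11.2) and Prph (389 ± 6.94), and Map1b (224 ± 9.87) and Tubb3 (219 ± 5.88) were not separated. The plot of these genes by library shows a gradual decline over the list, with Rbfox3, Nefm and Nefl under the level of 3 counts.

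Neurofilament genes differed widely. The heavy chain Nefh had 388, 406 and 416 CPM and the related alpha-internexin Ina 122.9, 119 and 120.5, while the medium chain Nefm had 0.0467 CPM and the light chain Nefl 0.0212 CPM, each without counts in at least 1 library and both under the level of 3 counts. Dcx, the microtubule protein of migrating neuroblasts, was at the threshold with 0.956, 0.995 and 1.55 CPM, and its relative Dclk1 had 91.3 ± 5.09 CPM. Rbfox3, which encodes the NeuN antigen of mature neurons, had 0.151 CPM, Rbfox1 2.40 CPM and Rbfox2 275 CPM. Synaptic genes were present, where the vesicle proteins Snap25, Syt1, Syp, Vamp2 and Syn1 had 157, 121, 116, 65.3 and 64.1 CPM, and the postsynaptic scaffold Dlg4 103. Stmn2, the stathmin whose splicing TDP-43 controls in human neurons, was at 5.92, 8.20 and 7.59 CPM.

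**Figure D2:**
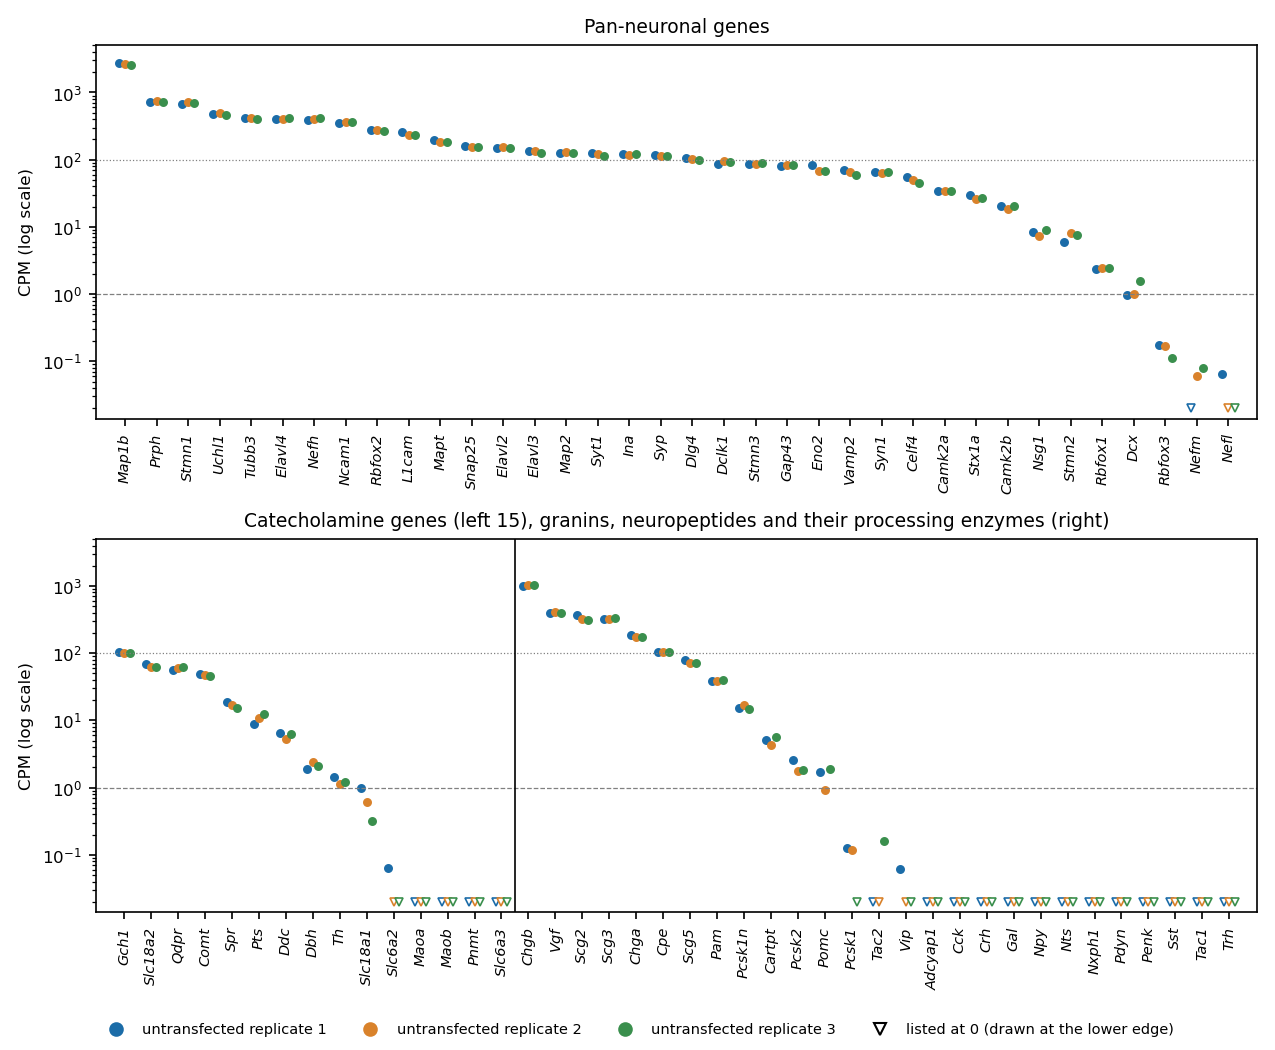
CPM (log axis) in the 3 untransfected libraries, 1 point per library with open triangles for 0, of pan-neuronal genes (top) and of catecholamine genes, granins and neuropeptides (bottom); dashed and dotted lines mark 1 and 100 CPM. Pan-neuronal genes run from Map1b at 2644 CPM to Nefl at 0.0212, and the 12 neuropeptide genes at the right end are at 0.

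Genes of transmitter synthesis and transport were present in part. Of 15 catecholamine genes 9 were at 1 CPM or more and 4 listed at 0. Gch1, the first enzyme of the pathway that makes the cofactor tetrahydrobiopterin, had 103, 99.5 and 101 CPM, and Slc18a2, which encodes the vesicular monoamine transporter VMAT2, 69.0, 63.4 and 63.2. Th, the rate-limiting enzyme of catecholamine synthesis, had 1.42, 1.15 and 1.20 CPM, the decarboxylase Ddc 6.40, 5.30 and 6.24 and Dbh, which makes noradrenaline, 1.87, 2.40 and 2.08. Per kb, Th was lowest of the 9 at 0.643 ± 0.0736 CPM per kb, under Dbh at 0.828 ± 0.104, and the cofactor enzymes Qdpr and Gch1 were highest at 43.7 ± 2.01 and 36.5 ± 0.649. Pnmt, the dopamine transporter Slc6a3 and both monoamine oxidases Maoa and Maob were listed at 0, and the noradrenaline transporter Slc6a2 had 0.0213 CPM.

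For acetylcholine, the esterase Ache had 15.6, 13.2 and 11.2 CPM and its membrane anchor Prima1 52.2, 52.2 and 53.7, while the synthetic enzyme Chat had 0.114 CPM and the vesicular transporter Slc18a3 0.0216. Among 16 genes for glutamate, GABA, glycine and serotonin, the GABA transaminase Abat had 101 ± 6.28 CPM and the serotonin-synthesizing Tph2 17.99 ± 0.630 CPM. The GABA-synthesizing enzymes Gad1 and Gad2 were at 0 and 0.107 CPM, and the vesicular glutamate transporters Slc17a6, Slc17a7 and Slc17a8 at 0, 0.101 and 0.

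Granins, the acidic proteins of dense-core vesicles, were abundant, and the peptides such vesicles carry were mostly not detected. Chgb had 992, 1024 and 1036 CPM, or 371 ± 8.38 CPM per kb, the highest of the list on that scale. Vgf had 395, 413 and 402 CPM, Scg3 324, 318 and 329.9, Scg2 366, 319 and 312, with replicate 1 above the other 2, and Chga 186, 176 and 173. Per kb, Vgf at 142 ± 3.22 came before Scg3 and Scg2 at 136 ± 2.43 and 132 ± 11.7 CPM per kb, whose values overlapped. Of the processing enzymes, carboxypeptidase Cpe stood at 105 ± 0.161 CPM and the amidating enzyme Pam at 38.7 ± 0.810 CPM, and the prohormone convertases Pcsk2 and Pcsk1 at 2.06 ± 0.477 CPM and 0.0814 CPM. The 12 genes of this list at 0 in all 3 libraries were Sst, Gal, Npy, Pdyn, Cck, Tac1, Penk, Nxph1, Adcyap1, Nts, Crh and Trh. Cartpt, at 5.16, 4.23 and 5.60 CPM, and Pomc, at 1.73, 0.917 and 1.87, were the peptide precursors with a mean above 1 CPM.

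Neural progenitor genes ranged from high levels to 0. Of 32 genes 17 were at 1 CPM or more, 6 at 100 or more and 8 listed at 0. The topoisomerase Top2a had 1481, 1593 and 1598 CPM and the proliferation antigen Mki67 532, 548 and 536, and Vim, the intermediate filament of undifferentiated cells, 854, 825 and 815. The let-7 repressors Lin28a and Lin28b stood at 143 ± 3.63 CPM and 53.1 ± 3.96 CPM, Msi2 and Msi1, RNA-binding proteins of stem cells, at 251 ± 3.92 CPM and 86.0 ± 5.71 CPM, Cd24a at 224 ± 12.2 CPM and nestin, Nes, at 82.5 ± 2.94 CPM. Listed at 0 were Sox1, Sox2, Sox3, Fabp7, Prom1, Hmga2, Igf2bp1 and Foxd3. The Notch target Hes1 had 0.0502 CPM and Hes5 0.131, and Hes6 and Hey1 had 7.65 and 17.6 CPM.

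Markers of other cell types were mostly at or near 0, with a few at low to moderate levels. Of 18 glial and Schwann cell markers 5 were at 1 CPM or more and 8 listed at 0 (Aqp4, Olig1, Olig2, Slc1a2, Slc1a3, S100b, Mog and Mag). Their sum of 241 to 249.5 CPM came mostly from Pmp22, a membrane protein with a wide tissue range, at 192 ± 4.33 CPM, and Gfap and Sox10 had 0.174 and 0.0404 CPM. Of 25 blood, vessel, fibroblast and epithelial markers 7 were at 1 CPM or more and 11 at 0, among them the leukocyte antigen Ptprc, the endothelial Cdh5 and Kdr and the epithelial Epcam. The list summed to 68.7 to 73.9 CPM, of which Acta2, the actin of smooth muscle and myofibroblasts, gave 37.0, 33.1 and 35.9 CPM. Also at 1 CPM or more were the endothelial Pecam1 at 9.24 CPM and Vwf at 6.41, the pericyte and fibroblast receptors Pdgfrb at 7.51 and Pdgfra at 6.27, Tmem119 at 3.52 and the collagen Col1a1 at 1.26. Whether these transcripts come from a few other cells or from the line itself was not tested.

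A few receptor genes were at high levels and most were at or near 0. Of 58 receptor tyrosine kinases 25 were at 1 CPM or more, 6 at 100 or more and 16 listed at 0. Ret (Entrez 19713), the signaling receptor for GDNF family ligands, had 617, 629.8 and 611 CPM, or 114 ± 1.78 CPM per kb, and no other kinase of the list overlapped with it on that scale. Its coreceptor Gfra1 had 48.4 ± 1.82 CPM and Gfra2 3.48 ± 0.258 CPM, while Gfra3 and the ligands Gdnf, Nrtn and Pspn were listed at 0. Ryk, an atypical Wnt receptor, followed at 40.0 ± 1.93 CPM per kb, then the collagen receptor Ddr2 at 30.9 ± 0.319, Fgfr1 at 23.2 ± 0.376, Ddr1 at 17.6 ± 0.0873, Lmtk2 at 14.4 ± 0.687 and the insulin receptor Insr at 12.4 ± 0.514. Igf1r and Alk, at 8.66 ± 0.389 and 8.63 ± 0.278 CPM per kb, were not separated.

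Alk, the receptor mutated in familial neuroblastoma, had 48.5, 47.2 and 45.5 CPM, and its ligands Alkal1 and Alkal2 were listed at 0. Of the neurotrophin receptors, Ngfr, which encodes p75NTR, had 260.4, 234 and 237 CPM, Ntrk3 72.1, 65.3 and 66.0 and Ntrk2 a mean of 0.0263 CPM. The sorting receptor Sort1 had 177 ± 4.31 CPM. Of the neurotrophins, Ntf3 was listed at 0, Bdnf had 0.147 CPM and Ntf5 1.19. Of the ligands on this list of 26 ligands and coreceptors, the growth factor Ptn was highest per kb, at 45.0 ± 0.861 CPM per kb (115 ± 2.20 CPM). The 16 kinases listed at 0 included Egfr, Erbb4, Kit, Met, Fgfr2, Flt3, Kdr, Ror1 and Ror2, and Erbb2 had 0.0882 CPM and Pdgfra 6.27 ± 0.0403 CPM.

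Transmitter receptors were sparser. Of 16 nicotinic subunits 5 were at 1 CPM or more: Chrna3, the alpha subunit of ganglionic receptors, with 145, 168 and 162 CPM, Chrnb2 with 47.0, 45.5 and 42.6, Chrna7 with 10.3, 10.7 and 10.4, Chrna5 with 2.42 and Chrnb1 with 1.81 on average, while Chrnb4, with which Chrna3 usually pairs, had 0.879 CPM. Among 19 GABA-A subunits no alpha or gamma subunit had a mean above 0.0664 CPM (Gabra2). Of 18 ionotropic glutamate receptor genes 5 passed, led by Grik5 at 47.1 CPM, Grin1 at 39.3 and Gria2 at 17.4, and the NMDA receptor partners Grin2a, Grin2b and Grin2c were listed at 0, with Grin2d at 2.34. Of 37 receptors for monoamines, acetylcholine, opioids and cannabinoids 22 were listed at 0. The cannabinoid receptor Cnr1 had 274, 268 and 274 CPM, or 46.9 ± 0.625 CPM per kb, against 12.96 ± 1.09 CPM per kb for the muscarinic receptor Chrm4 and 3.23 ± 0.0729 for the nociceptin receptor Oprl1, the next of that list. The plot of receptor levels per kb shows Ret, Ngfr and Cnr1 at the top and a continuous decline after them.

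**Figure D3:**
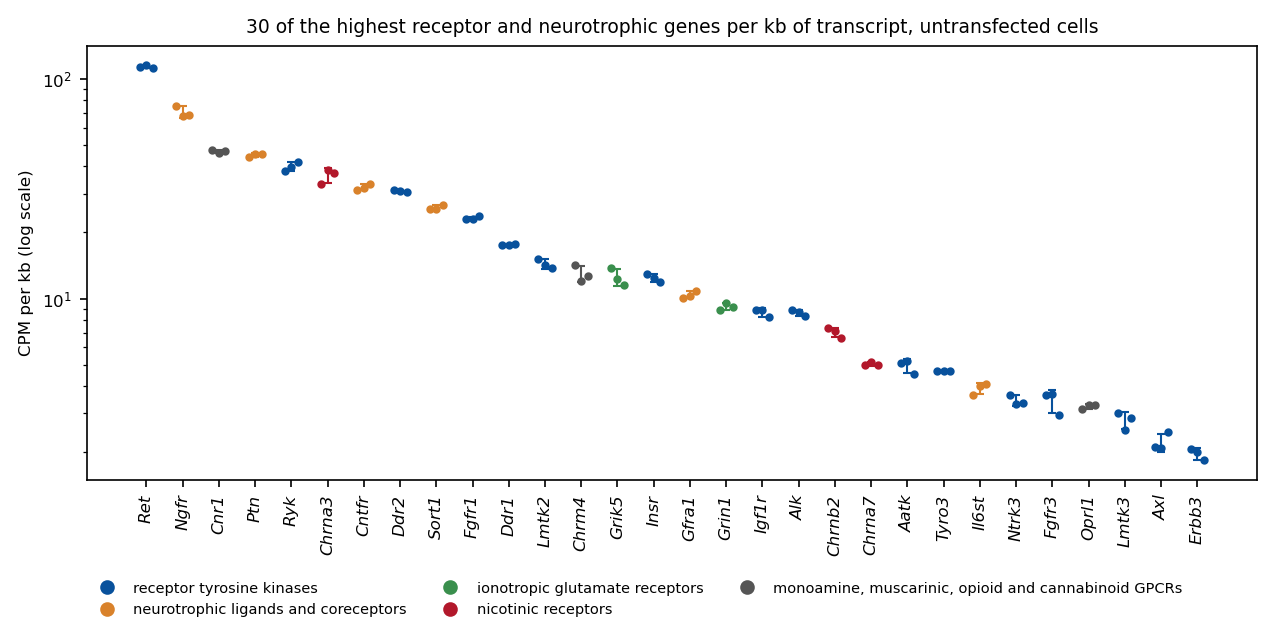
CPM per kb of transcript (log axis) in the 3 untransfected libraries for 30 of the highest genes of the receptor and neurotrophic lists, colored by list, with bars for the SD of the 3 libraries around their mean. Ret at 114 ± 1.78 CPM per kb and Ngfr at 70.8 ± 4.14 stand above the rest, which fall to 1.97 ± 0.121 for Erbb3.

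Of 24 voltage-gated sodium and calcium channel genes 13 were at 1 CPM or more and none at 100. The N-type calcium channel Cacna1b had 73.2 ± 2.43 CPM, the L-type Cacna1c 53.2 ± 0.957 CPM, and the sodium channels Scn8a, Scn3b and Scn9a 42.5 ± 0.813 CPM, 40.7 ± 2.21 CPM and 33.9 ± 2.55 CPM. Cacna1d, Cacna1e, Cacna1f, Scn4b and Scn7a were listed at 0. Of 41 Wnt ligands, receptors and secreted antagonists 14 passed 1 CPM, with Lrp6 and Kremen1 highest per kb, at 18.3 ± 0.560 and 15.2 ± 1.18 CPM per kb. The coreceptor Lrp6 had 171 ± 5.24 CPM, Fzd3 115 ± 2.34 CPM and the Dickkopf receptor Kremen1 73.8 ± 5.75 CPM. Among the ligands Wnt5a had 11.2 ± 0.698 CPM and Wnt3 7.19 CPM, and the feedback target Axin2 had 9.32 ± 1.24 CPM.

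Of 12 targets, related genes and reference genes 10 were at 100 CPM or more. Atxn2, the target of the crRNAs and of the ASO, had 122.8, 124 and 120.4 CPM, a mean of 122 ± 1.86 CPM, at percentile 83.2 of the genes at 1 CPM or more. Its paralog Atxn2l had 248 ± 7.23 CPM. Tardbp, which encodes TDP-43, stood at 503, 501 and 513 CPM, and the stress granule scaffolds G3bp1 and G3bp2 at 505 ± 13 CPM and 274 ± 4.10 CPM. Dkk1, a secreted Wnt antagonist, had 306, 278 and 285 CPM and its relative Dkk3 276, 270.1 and 249, while Dkk2 had 0.112 CPM and Dkk4 was listed at 0. Per kb, Dkk1 (119 ± 5.93 CPM per kb) exceeded Dkk3 (78.9 ± 4.10) and Atxn2 (27.4 ± 0.417 CPM per kb) in each library. The reference genes Gapdh, Actb and Rpl4 had 2202 ± 45.2 CPM, 3926 ± 34.7 CPM and 1715 ± 16.8 CPM.

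Cell cycle and tumor genes included paralogs at very different levels. Of 30 such genes 25 were at 1 CPM or more. Cdk4 had 290.1, 308 and 305 CPM and Ccnd1, its cyclin partner, 258, 246 and 258, whereas Cdk6 and Ccnd2 were listed at 0 and Ccnd3 had 31.6 ± 1.45 CPM. The tumor suppressors Trp53, Nf1 and Rb1 had 88.4 ± 0.657 CPM, 82.9 ± 0.946 CPM and 47.6 ± 2.79 CPM, and the locus of the CDK inhibitor and p53 activator Cdkn2a 29.9, 30.2 and 28.9 CPM. Of 30 imprinted genes 19 passed 1 CPM. The G protein subunit Gnas had 992, 967 and 937 CPM and the hydrolase Mest 1014, 898 and 903, in which replicate 1 was above the others, and Mest was the higher per kb, at 352 ± 24.5 against 245 ± 7.03 CPM per kb. Next in CPM were Peg3 at 333 CPM, Peg10 at 187, Impact at 163 and Inpp5f at 158. H19, Dlk1 and Cdkn1c had 0.125, 0.416 and 0.242 CPM, and Plagl1, Ndn and Zrsr1 were listed at 0. Xist, the RNA that coats the inactive X chromosome, had 389.8, 384 and 375 CPM, while of 8 Y-linked genes 7 (Ddx3y, Kdm5d, Uty, Zfy1, Zfy2, Usp9y and Sry) were listed at 0 and Eif2s3y had 0.0213 CPM.

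Before transfection the sensors of foreign RNA and DNA ranged from moderate levels to 0. Of 46 genes 23 were at 1 CPM or more, 1 at 100 CPM or more and 7 listed at 0. Per kb the kinase Tbk1, which activates interferon regulatory factors, was highest at 31.3 ± 0.982 CPM per kb, then the antiviral zinc finger protein Zc3hav1 at 25.1 ± 0.672. As CPM, Zc3hav1 had 121, 125 and 127, Tbk1 97.0, 91.3 and 95.6, the RNA-editing enzyme Adar 69.5, 68.8 and 64.9 and Eif2ak2, which encodes the double-stranded RNA kinase PKR, 60.9, 58.0 and 55.1. Of the RIG-I-like receptors, Ddx58, the symbol under which the table lists RIG-I, had 7.61, 6.68 and 5.73 CPM, Dhx58 0.883, 0.680 and 1.01 and Ifih1, which encodes MDA5, 0 in all 3. Their adaptor Mavs had 16.9 ± 1.46 CPM. Among Toll-like receptors of nucleic acids, Tlr3 and Tlr7 had 0.139 and 0.433 CPM, and Tlr8 and Tlr9 were listed at 0.

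The DNA sensing pair Cgas and Sting1 was expressed, at 5.03, 5.36 and 8.12 CPM and 17.2, 15.9 and 15.3 CPM, as was the inflammasome sensor Aim2 at 23.7, 23.3 and 23.5, while Zbp1 and Ifi204 were listed at 0. The interferon receptor and its signal chain were present, with Ifnar1 at 54.2 CPM, Stat2 at 40.6, Ifnar2 at 20.3, Irf3 at 17.2 and Irf9 at 4.40, but Irf7, the factor that amplifies the response, had 0.293 CPM. Ifnb1 was listed at 0, as were 17 of 18 type I interferon genes. The interferon-stimulated genes Ifit1, Isg15, Rsad2 and Oasl2 had 0.0856, 0.790, 0.808 and 0.284 CPM. Bst2, which encodes tetherin, had 11.3 ± 0.928 CPM and Ifit2 5.01 ± 0.324 CPM. Oas1a and Oas1g, close copies whose reads may be shared, had 0.523 and 0.134 CPM.

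Stress sensors were mostly at moderate levels, and the heat-inducible chaperones Hspa1a and Hspa1b were near 0. Of 37 genes 29 were at 1 CPM or more and 8 at 100 or more. All 4 kinases that phosphorylate eIF2 alpha were expressed: the heme-regulated Eif2ak1 at 73.7 ± 3.30 CPM, PKR (above), the endoplasmic reticulum kinase Eif2ak3 at 44.2 ± 1.21 CPM and the amino acid sensor Eif2ak4 at 34.1 ± 0.888 CPM. Their effector Atf4 had 715, 724 and 689.9 CPM and its target Ddit3 31.5, 29.1 and 30.6. The unfolded protein sensors Ern1 and Atf6 had 35.6 ± 0.596 CPM and 90.6 ± 4.83 CPM and the chaperone Hspa5 921 ± 32.2 CPM, while Ern2 and Nlrp1b were listed at 0. The constitutive chaperone Hspa8 had 3398 CPM, and Hspa1a and Hspa1b, near-identical heat-inducible copies, 0.0960 and 0.0615 CPM. Hif1a and its hydroxylase Egln1 had 246 ± 3.77 CPM and 159 ± 6.74 CPM, and Epas1, the other oxygen-sensitive alpha subunit, 0.142 CPM.

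Large tissue-restricted families give a view of the lowest levels in the table. Of 1111 olfactory receptor genes 1092 (98.3%) were listed at 0 and none reached 1 CPM, with a sum of 1.60 ± 0.180 CPM over the family. Of 337 vomeronasal receptor genes 318 were listed at 0, with Vmn1r132 at 3.10 ± 0.215 CPM as the highest. All 56 keratin-associated protein genes and 47 of 51 keratins were listed at 0. By contrast 30 of 406 Zfp zinc finger genes (7.39%) and 94 of 380 solute carriers (24.7%) were. The plot of list composition orders the lists from pan-neuronal genes, with 88.9% at 1 CPM or more, down to proneural factors, with 4.35%.

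**Figure D4:**
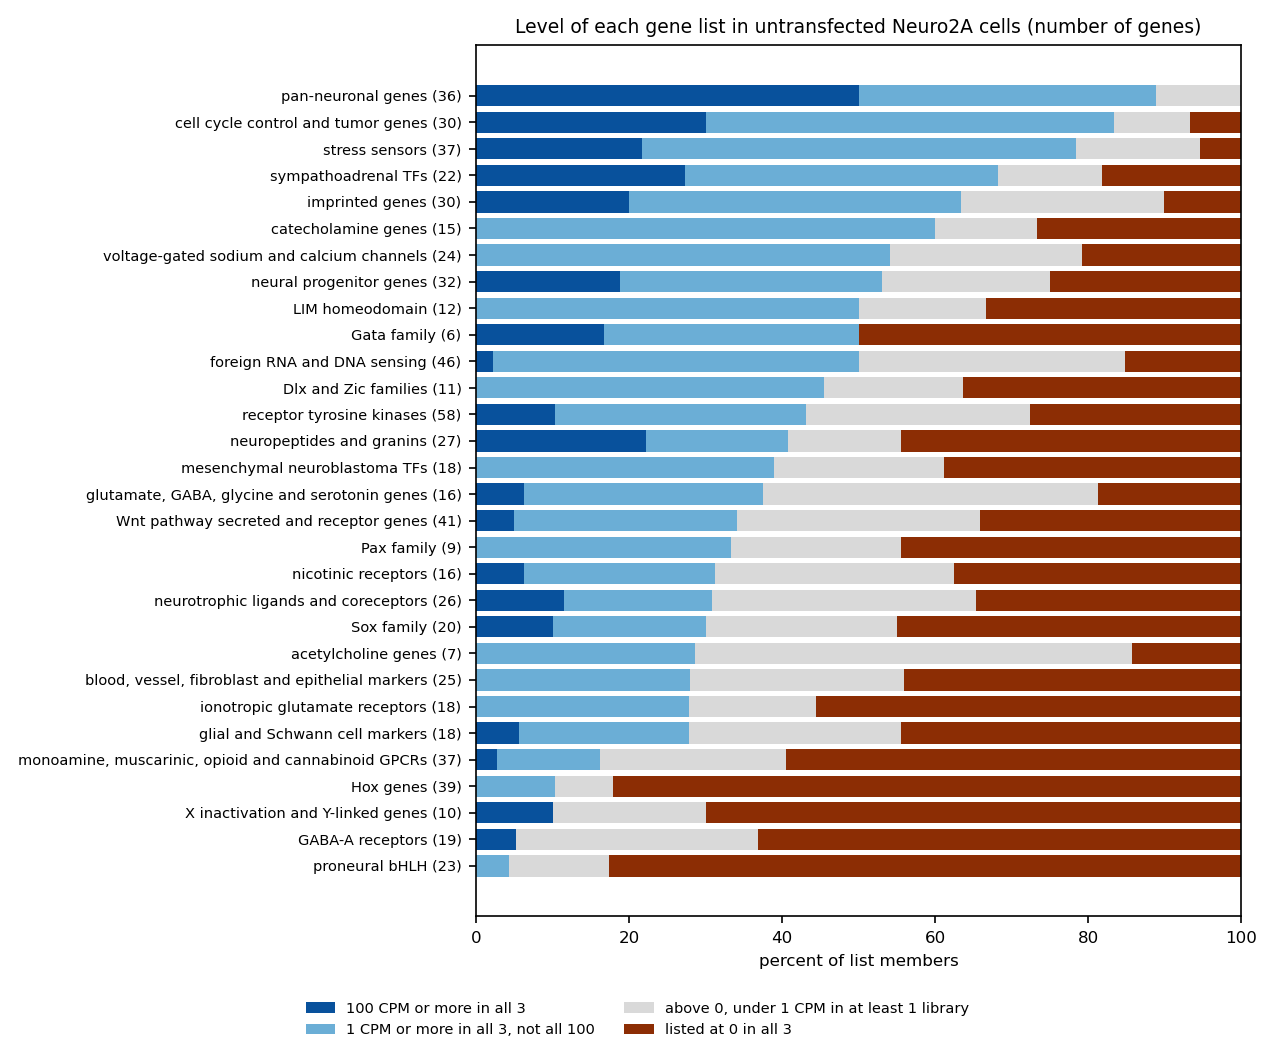
Share of the genes of each list (number of genes in parentheses) at 100 CPM or more, at 1 CPM or more, at lower levels and at 0 in all 3 untransfected libraries, as percent of the list. Pan-neuronal genes have no member at 0 in all 3 libraries, and proneural and Hox genes have 19 of 23 and 32 of 39 there.

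The spread over the 3 libraries depended on the level. The median CV was 13.9% for genes of 1 to 10 CPM, 4.65% for 10 to 100 CPM, 2.37% for 100 to 1000 CPM and 1.52% above, against 13.7%, 4.30%, 2.01% and 0.663% from counting alone. The 2444 genes of 100 to 1000 CPM had no CV above 20%. Among genes with a mean of at least 10 CPM the widest were Rnaset2b, a lysosomal ribonuclease with a near-identical copy, with 8.13, 20.8 and 5.71 CPM, the reproductive homeobox gene Rhox4a of a multicopy cluster with 18.7, 16.7 and 5.06, and the predicted gene Gm6793 with 40.9, 26.4 and 12.5. The apoptosis modulator Moap1 (14.7, 6.81 and 12.2 CPM), Zfp787, Gm20498, Sco2, Gcfc2, Gm20605 and Anxa2 (22.7, 15.4 and 14.7 CPM) followed, with CVs from 35.8% down to 25.5%. None of these is on the lists above.

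To see which levels belong to cells that were not transfected, the 18 plasmid-transfected samples were compared with the 3 untransfected ones by edgeR's quasi-likelihood test on 13901 genes, with Benjamini-Hochberg adjustment and a threshold of 0.05. Of these genes 3804 (27.4%) were called, 1847 (13.3%) higher and 1957 (14.1%) lower after transfection, most by little: the median size of the called changes was 0.17 on the log2 scale, and 124 exceeded 1 there. P-values measure the spread between these samples, which may be partly technical. Plasmid, lipid reagent, an effector and a crRNA came together in each of these samples, so their parts cannot be told apart in this comparison. The effectors and crRNA arms were pooled here, and differences between them were not tested. The same 3 untransfected samples serve in the comparison with the ASO, where 5938 genes (42.7%) were called, 2919 (21%) higher and 3019 (21.7%) lower.

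Of the genes that sense foreign RNA and DNA, Isg15, Rsad2 and Ddx58 were among those that rose after transfection. Of the 46 members 38 had enough counts to be tested, of which 11 were under 0.5 CPM in at least 1 untransfected library, so that some passed the filter only through the other samples. Of the 27 tested members at 0.5 CPM or more in every untransfected library, 17 rose and 1 fell, beside 14.3% and 15.5% of the 12507 genes tested at such levels. The median log2 difference of these 27 was 0.32, against -0.01 over the 12507 genes. Ifit1, an RNA-binding effector that blocks translation of foreign RNA, had 0.0629, 0.116 and 0.0776 CPM in untransfected cells and between 12.9 and 24.5 CPM with a median of 17.0 after transfection. The untransfected level rests on 4 counts over the 3 libraries, and the ratio was 194 with an exact 95% Poisson interval of 75.8 to 712 for counting error only. Oasl2, a 2'-5' oligoadenylate synthetase-like protein, had 0.319, 0.296 and 0.237 CPM in untransfected cells and between 6.54 and 17.6 CPM with a median of 9.27 after transfection, a log2 difference of 5.05 ± 0.28 (SE). Both were under 0.5 CPM in all 3 untransfected libraries and entered the test only through the other samples, so that no p-value is given for them. Isg15, a ubiquitin-like modifier, rose from 0.771, 0.961 and 0.639 CPM to between 8.68 and 16.3 CPM with a median of 10.9, by 3.77 ± 0.16 (SE) (edgeR adjusted p = 2.3e-16). For these 3 genes the lowest transfected sample was above the highest untransfected one. Of all genes tested 1281 (9.22%) had no overlap between these groups, in either direction.

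Rsad2, which encodes viperin, rose from 0.887, 0.760 and 0.777 CPM to between 7.10 and 19.4 CPM with a median of 9.70 (log2 difference 3.61 ± 0.20 (SE), edgeR adjusted p = 8.1e-14), and RIG-I, listed as Ddx58, from 7.61, 6.68 and 5.73 CPM to between 14.96 and 34.6 CPM with a median of 19.6 (1.63 ± 0.12 (SE), edgeR adjusted p = 2.8e-11). Ifih1, listed at 0 in the untransfected libraries, was between 0.291 and 1.27 CPM with a median of 0.752 in the transfected ones, in mean at least 3.19-fold higher than 3 counts in the shallowest untransfected library. Oas2, also listed at 0, was between 0.123 and 3.38 CPM with a median of 0.622, in mean at least 3.87-fold higher against the same floor, and its lowest transfected sample was below that floor. These genes, too, entered the test only through samples other than the untransfected ones, and their values are a description. The single member that fell was Ifnar2, a chain of the type I interferon receptor, with 21.2, 20.4 and 19.3 CPM before and between 14.6 and 20.1 CPM with a median of 17.5 after (log2 difference -0.23 ± 0.07 (SE), edgeR adjusted p = 0.0084), a call that was lost without untransfected replicate 1 (edgeR adjusted p = 0.0788). Ifnb1 stayed at 0 in every transfected sample.

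The letters GAAANNGAAA, or their reverse complement TTTCNNTTTC, the core of the element through which interferon-induced factors bind, occurred in the 250 bases before the start of 7 of the 20 sensing genes that rose and were matched to a promoter (35%), of 4 of 14 other members (28.6%), and of 810 (3.07%) of all 26410. Some of the 20 passed the filter of the test only through samples other than the untransfected ones. Among these were Ifit1, Oas1a and Oas1g, which hold a match. Both strands were searched and overlapping matches counted. A match describes the letters and is not evidence of a bound site. A pair of these promoters is printed next, 5′ to 3′ on the strand of the gene up to its start, with the matches in capitals, for Ifit1 on the plus strand at chr19:34640639-34640888 (2 matches) and Isg15 on the minus strand at chr4:156200819-156201068 (3 overlapping matches), both of GRCm38.p6.
Ifit1: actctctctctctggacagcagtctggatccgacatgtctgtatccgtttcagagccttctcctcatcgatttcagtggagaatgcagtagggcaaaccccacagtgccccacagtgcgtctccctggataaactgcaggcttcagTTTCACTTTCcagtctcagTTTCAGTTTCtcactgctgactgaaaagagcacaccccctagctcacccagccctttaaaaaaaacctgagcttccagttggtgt
Isg15: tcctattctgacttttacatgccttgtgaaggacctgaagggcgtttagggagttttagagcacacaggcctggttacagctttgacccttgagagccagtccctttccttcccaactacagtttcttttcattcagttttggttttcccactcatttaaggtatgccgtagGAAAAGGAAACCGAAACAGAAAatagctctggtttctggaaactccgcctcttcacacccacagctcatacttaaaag

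In the ASO samples the same genes had the following levels. Ifit1 had 1.17, 1.34 and 1.74 CPM in increasing order, a log2 difference of 3.85 ± 0.50 (SE) from untransfected cells, Oasl2 2.57, 3.09 and 3.98 CPM (3.41 ± 0.39 (SE)) and Ddx58 11.0, 11.5 and 14.49 CPM (0.83 ± 0.15 (SE), edgeR adjusted p = 4.8e-05). Isg15, at 0.954, 1.07 and 1.39 CPM, overlapped with the untransfected libraries and did not pass the test (edgeR adjusted p = 0.18). Of the 27 tested members at 0.5 CPM or more in every untransfected library 13 rose and 2 fell with the ASO, beside 21.6% and 24% of the 12507 genes tested at such levels. The difference between plasmid and ASO samples was not tested. The plot of these genes by group shows the ASO points between the untransfected and the transfected ones for Ifit1, Oasl2 and Rsad2, and at the level of the untransfected ones for Isg15 and Oas1a.

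**Figure D5:**
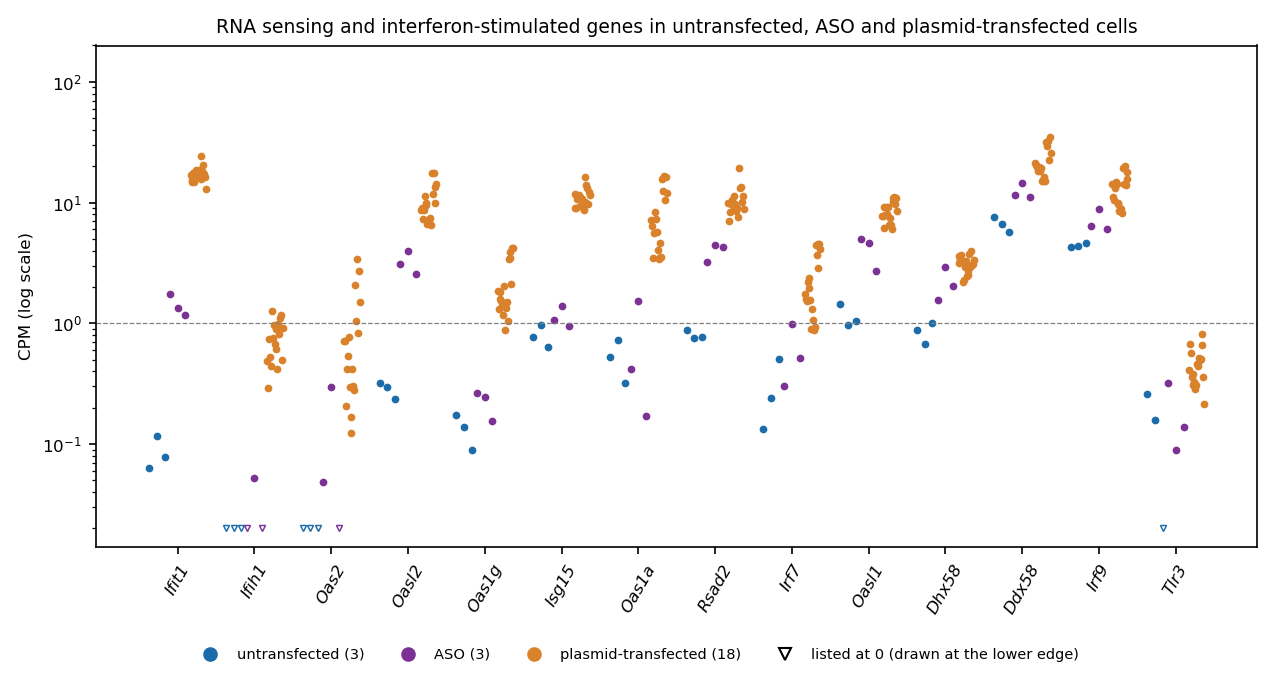
CPM (log axis) of the 14 sensing and interferon-stimulated genes with the largest rise after transfection, in 3 untransfected, 3 ASO and 18 plasmid-transfected samples, 1 point per sample with open triangles for 0 and a dashed line at 1 CPM. Ifit1 is at 0.0629 to 0.116 CPM in untransfected cells, 1.17 to 1.74 with the ASO and 12.9 to 24.5 after transfection.

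The 3 largest falls after transfection were of Acta2, Fblim1 and Myl9. Acta2 fell from 37.0, 33.1 and 35.9 CPM to between 5.32 and 10.5 CPM with a median of 7.89 after transfection, a log2 difference of -2.20 ± 0.08 (SE) with an edgeR adjusted p of 3.1e-18, and to 4.95, 5.73 and 6.44 CPM with the ASO (-2.67 ± 0.12 (SE), edgeR adjusted p = 2e-16). Fblim1, which links filamin to integrin adhesions, had 10.8, 9.21 and 11.3 CPM and fell by 1.17 ± 0.10 (SE) on the log2 scale after transfection (edgeR adjusted p = 1.1e-09) and by 1.93 ± 0.15 with the ASO (edgeR adjusted p = 1.8e-11). Myl9, a myosin regulatory light chain, fell by 1.16 ± 0.11 from a mean of 8.81 CPM after transfection (edgeR adjusted p = 2.2e-09). With the ASO, Pdk1, a kinase that restrains pyruvate dehydrogenase, fell by 2.56 ± 0.27 from 11.4, 11.6 and 9.10 CPM (edgeR adjusted p = 1.1e-08). Falls were ranked among genes past the threshold that average 50 or more counts per sample and whose groups are fully separated. Of the 25 markers of blood, vessel, fibroblast and epithelial cells 7 were at 0.5 CPM or more in every untransfected library. Of these 7, Acta2 included, 4 fell and 0 rose after transfection, beside 15.5% and 14.3% of the 12507 genes tested at such levels. The median log2 difference of the 7 was -0.33. Fmod, an extracellular matrix protein with 2.06, 1.49 and 2.46 CPM, was the 1 gene at 1 CPM or more in all untransfected libraries and under 1 CPM in all 21 others.

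The sympathoadrenal and pan-neuronal lists moved little in median, while the Id genes, Atoh8 and Eno2 moved by more. Of the 22 sympathoadrenal factors 15 were at 0.5 CPM or more in every untransfected library. Of these 15, 4 rose and 4 fell after transfection, beside 14.3% and 15.5% of the 12507 genes tested at such levels. The median log2 difference of the 15 was -0.008. Hand2 rose by 0.08 ± 0.02 (SE), from 359, 368 and 364 CPM to between 359 and 413 CPM with a median of 384, with overlapping groups (edgeR adjusted p = 0.0021), and had 395, 398 and 415 CPM with the ASO (0.10 ± 0.02 (SE), edgeR adjusted p = 0.00098). Of the 36 pan-neuronal genes 33 were tested, of which 17 fell and 3 rose, with a median of -0.09, beside 14.1% and 13.3% of all genes tested. Tubb3 fell by 0.25 ± 0.02 (edgeR adjusted p = 8.3e-10) and the neuronal enolase Eno2, from 83.2, 68.6 and 68.6 CPM, by 0.56 ± 0.07 (edgeR adjusted p = 5.2e-07), and with the ASO by 1.13 ± 0.09 (edgeR adjusted p = 7.2e-11). The 4 Id genes, which encode inhibitors of basic helix-loop-helix factors, rose after transfection. Id1 went from 24.6, 25.5 and 24.6 CPM to between 35.9 and 46.1 CPM with a median of 41.1 (log2 difference 0.72 ± 0.05 (SE), edgeR adjusted p = 5.8e-11), and Id4 from 3.75, 3.41 and 3.76 CPM to between 4.11 and 6.99 CPM with a median of 5.49 (0.58 ± 0.12 (SE), edgeR adjusted p = 0.00039). Id2 rose from 7.80, 10.6 and 8.69 CPM to between 18.7 and 25.8 CPM with a median of 22.9 (1.30 ± 0.08 (SE), edgeR adjusted p = 7.3e-13) and Id3 from 6.72, 6.81 and 8.17 CPM to between 13.5 and 20.1 CPM with a median of 17.9 (1.31 ± 0.09 (SE), edgeR adjusted p = 5.8e-12), and both rose with the ASO, by 1.37 ± 0.09 (SE) and 1.46 ± 0.10 (SE) (edgeR adjusted p = 1.3e-12 and 3.2e-12). With the ASO Id1 rose by 0.77 ± 0.07 (SE) and Id4 by 0.49 ± 0.14 (SE) (edgeR adjusted p = 1.2e-10 and 0.0057). The proneural factor Atoh8 rose by 0.81 ± 0.07 (SE) to between 12.3 and 16.6 CPM with a median of 14.1 (edgeR adjusted p = 4.2e-10).

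Atxn2 served as the check of the target. Against 122.8, 124 and 120.4 CPM in untransfected cells it had 50.1, 54.1 and 55.4 CPM with the ASO (log2 difference -1.25 ± 0.04 (SE), edgeR adjusted p = 1.7e-19) and between 98.0 and 125 CPM with a median of 114 over the 18 transfected samples, targeted and NTG together (log2 difference -0.13 ± 0.03 (SE), edgeR adjusted p = 0.00097). Gapdh, a common reference gene, fell by 0.13 ± 0.02 after transfection (edgeR adjusted p = 4.9e-05) and by 0.41 ± 0.03 with the ASO (edgeR adjusted p = 4.9e-12). In the other lists only members at 0.5 CPM or more in every untransfected library were counted here. Of 29 stress sensors 9 rose and 4 fell after transfection, and of 27 receptor tyrosine kinases 1 and 10. The numbers were 5 and 5 of 17 progenitor genes and 2 and 5 of 12 granin and peptide genes. They were 6 and 5 of 26 cell cycle genes and 2 and 7 of 19 imprinted genes. Of the 12507 genes tested at such levels 14.3% rose and 15.5% fell.

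The set of genes detected was compared between the groups. Of the 11806 genes at 1 CPM or more in untransfected cells 11415 were so in all 21 other samples. Of the 19943 genes listed at 0, 14563 were also at 0 in all 21, none reached 1 CPM in every transfected sample, and 1, Npcd, did so in every ASO sample. Npcd, a locus that overlaps neighboring genes and whose counts are therefore uncertain, had 4.99 to 22.99 CPM there. That was in mean at least 59.7-fold higher than 3 counts in the shallowest untransfected library. Over the transfected samples it had values from 0 to 44.4 CPM, of which 12 of 18 were above 0. Npcd entered the test only through samples other than the untransfected ones, so that no p-value is given for it. Its call in the ASO samples was lost when any 1 untransfected library or ASO replicate 1 was left out.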

How the data were processed

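Poly(A) RNA of 24 samples was sequenced as stranded, single-end libraries. Values are gene-level expected counts, which the authors estimated with Salmon 1.5.2 against the GRCm39 transcriptome with sequence and GC bias correction and summarized with tximport (lengthScaledTPM). Reads shared by near-identical genes can be split between them, and mitochondrially encoded genes were not analysed here. CPM used library totals. Transcript lengths came from GENCODE transcripts, and gene types and promoters from RefSeq GRCm38.p6. Only names, gene types, lengths and upstream sequences were taken from these annotations. For the comparisons counts were rounded and fitted in edgeR 4.0.16 (R 4.3.3; TMM, quasi-likelihood test, genes of at least 0.5 CPM in at least 3 samples, 1 coefficient per group), with scripts tested on simulated data. DESeq2 1.42.0, limma 3.58.1, RLE factors, no filter, a replicate block and leaving out replicates were alternatives. The 3 untransfected libraries held 12665725 to 16813658 counts, and intervals and floors cover counting error only. By the study's methods, in vitro work used independent biological replicates.

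The 31 gene lists and the members were chosen with earlier results of these data known. Named were, per list, the 6 members highest in CPM, those of at least 100 CPM and those listed at 0, and per comparison at most 4 called members. Over all genes these were the 20 highest by CPM and by CPM per kb, the 10 of largest CV among genes of at least 10 CPM, and the 3 largest called rises and falls among genes of at least 50 counts with separated groups. A few list members are counted in their lists but not reported here by name or in the plots. Atxn2, Tardbp, Dkk1, Gapdh and Actb were always named. Other members named at low or intermediate levels, such as Th, Dcx, Gata3 and Isg15, and Fmod were picked after their values were seen. Same-numbered samples of different groups did not deviate together (84 pairs, median correlation of deviations 0.0174, 1 pair over 0.1), so the numbers do not pair samples.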

Additional observations from a re-analysis of the deposited data

How the results depend on the processing

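The counts of genes by level moved with the cut-off and the gene set. With a cut-off 2 times lower than 100 CPM 4608 genes passed in place of 2434, and with one 2 times higher 965. Of the genes the authors marked as kept, 8 were listed at 0 in all 3 untransfected libraries, in place of 19943 in the whole table. The 100 most abundant genes held 25.9% on the CPM per kb scale in place of 17.3% of counts, and 10 of the 20 highest genes per kb stayed among the 20 with the median transcript length. The median CV of 3.84% for genes of at least 10 CPM became 2.34% for genes of at least 100 CPM. List members at 1 CPM or more numbered 306, with a range of 286 to 323 over all alternatives tried. Without each untransfected replicate in turn, genes listed at 0 in the other 2 numbered 20622 to 20875.

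Of the 3804 genes called after transfection, leaving out 1 replicate at a time gave 2654 to 4061, and other settings 3218 to 3991. For the ASO, with 5938 calls, these ranges were 5183 to 5491 and 5333 to 6103. The replicate number as a block gave 3991 and 6103 calls, and since the numbers do not pair the samples this is reported only here. Of 770 values of named genes under alternatives, 764 kept their direction and side of the threshold and 6 changed side with the direction kept. The 5 that lost their call were Ifnar2 after transfection without untransfected replicate 1 and Npcd with the ASO without any 1 untransfected replicate or ASO replicate 1. Isg15 with the ASO was called by limma-trend alone (log2 difference 0.41, limma adjusted p = 0.019). DESeq2 gave Ifih1 no adjusted p after transfection, and that value is not counted. The cause of these changes was not tested.

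At these depths a count of 0 allows a level of up to 0.237 CPM in the shallowest library. Of genes at 1 to 10 CPM the median CV of 13.9% was nearly that of counting alone, so differences among low genes within this error were not detectable. All values are of 1 cell line.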

Other observations

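Long non-coding RNAs were mostly listed at 0 or low in the untransfected libraries, and 8 of 12061 that RefSeq annotates as such were at 100 CPM or more. They were picked out after their values were seen. Gm26782 had 4726, 4961 and 4982 CPM and rank 5 of all genes, Norad, an RNA that binds Pumilio proteins, 241, 240.3 and 249, and Gas5, the host of many small nucleolar RNAs, 125, 122 and 128. Malat1, an abundant nuclear RNA, had 383, 282 and 291 CPM, and its CV of 17.6% was above the median of 2.37% for genes of 100 to 1000 CPM, with replicate 1 above the other 2. The remaining 4 were Xist, given above, Gm20716 at 236 CPM, Gm15564 at 149 and AY036118 at 110.4. The libraries were made from poly(A) RNA, so RNAs without a poly(A) tail are measured poorly. Of 1166 microRNA genes 1145 were listed at 0, and the mature microRNAs were not analysed here.

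Myc and Mycn, the pair of related oncogenes, were compared per kb of transcript after their values were seen. Myc stood at 78.1 ± 3.05 CPM per kb and Mycn at 7.74 ± 0.101 (SD, n = 3), and their values did not overlap over the 3 libraries. Mycl, the other family member, had 0.804 CPM.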
